A study of Rattus norvegicus with 12 samples.

Results

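Gene expression in the lumbar spinal cord of rats 14 days after spinal cord injury (SCI) was compared with that of sham rats across all expressed genes. The comparison used the 3 libraries labelled SCI and Day14 (SCI day 14) and the 3 labelled sham and Day0 (sham), which are 6 of the 12 RNA-seq libraries of the series. The other 6 libraries, 3 from day 3 and 3 from day 7 after SCI, entered the fit and serve below as earlier times. All tissue came from segments L3 to L5 of the cord. The labels give no strain, sex or age, and neither the level nor the kind of the injury. Sham tissue was labelled day 0, so time after surgery and injury cannot be told apart. The labels do not say that the libraries came from separate animals, and p-values here measure only the spread between these libraries, which may be technical.

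The lumbar enlargement holds the motor and sensory circuits of the hindlimbs. When the cord is injured above it, these circuits lose their input from the brain while their own neurons survive. Axons cut off from their cell bodies then degenerate through the white matter below, microglia and macrophages clear the myelin debris, and astrocytes become reactive. Dorsal root ganglia hold the cell bodies of sensory neurons and lie outside the cord. Nerve roots, which are sheathed by Schwann cells, join them to it.

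The libraries held 75516667, 71117404 and 63010295 counts in SCI day 14 replicates 1, 2 and 3, against 64585462, 65153240 and 65122323 in sham replicates 1, 2 and 3. Levels are given as CPM, the counts of a gene relative to the library total, scaled by library composition. Snap25, a synaptic vesicle fusion protein of neurons in general, was present in every library and does not tell cord from ganglion. It was at 930, 394 and 762 CPM in SCI day 14 tissue, against 1127, 780 and 1243 CPM in sham tissue. Hoxc10, which marks lumbar identity, was at 44.0, 20.6 and 36.7 CPM in SCI day 14 tissue, against 53.9, 42.3 and 53.6 CPM in sham tissue. Hoxc11, a marker of the lower lumbar and sacral cord, was at 16.3, 2 and 19.0 CPM in SCI day 14 tissue, against 0.275, 20.6 and 26.0 CPM in sham tissue. SCI day 14 replicate 2 and sham replicate 1 were the low libraries for Hoxc11, and the part of segment level in the results was not tested. These Hox genes were picked after their values were seen. In bulk tissue, fewer cells of a type and less RNA per cell cannot be told apart.

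Of 18714 genes tested, 3 differed between SCI day 14 and sham tissue at an adjusted p under 0.05 (0.016% of the genes), and all 3 rose: Tmem158, Ccdc71l and Cebpb. None fell (0% of the genes). The same fit gave an unadjusted p under 0.05 to 1384 genes (7.4%), of which 1203 had higher values (6.43%) and 181 lower values (0.967%). DESeq2, run on the same counts as an alternative, called 182 genes higher (0.98%) and 22 lower (0.118%), all 3 edgeR calls among them. The 3 SCI day 14 libraries lay above all 3 sham libraries at 1753 genes (9.37%) and below all 3 at 1175 genes (6.28%).

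The 250 bases before the annotated start of each called gene are shown because these genes rose together, with the GC box GGGCGG, on either strand, in capitals. The sequences are RefSeq's, on GRCr8, written 5′ to 3′ on the gene's strand: chr8:131792136-131792385 on the minus strand, chr6:54687224-54687473 on the plus strand and chr3:176816755-176817004 on the plus strand.
Tmem158: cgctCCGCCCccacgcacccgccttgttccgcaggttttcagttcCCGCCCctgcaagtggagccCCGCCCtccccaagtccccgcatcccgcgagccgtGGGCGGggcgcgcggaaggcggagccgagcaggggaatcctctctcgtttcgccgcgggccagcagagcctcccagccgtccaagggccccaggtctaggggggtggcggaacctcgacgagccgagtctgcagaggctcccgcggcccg
Ccdc71l: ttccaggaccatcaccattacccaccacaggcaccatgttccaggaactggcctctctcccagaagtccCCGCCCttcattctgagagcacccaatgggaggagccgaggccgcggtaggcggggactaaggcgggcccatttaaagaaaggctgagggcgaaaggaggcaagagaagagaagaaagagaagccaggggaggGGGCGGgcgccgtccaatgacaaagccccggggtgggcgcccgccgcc
Cebpb: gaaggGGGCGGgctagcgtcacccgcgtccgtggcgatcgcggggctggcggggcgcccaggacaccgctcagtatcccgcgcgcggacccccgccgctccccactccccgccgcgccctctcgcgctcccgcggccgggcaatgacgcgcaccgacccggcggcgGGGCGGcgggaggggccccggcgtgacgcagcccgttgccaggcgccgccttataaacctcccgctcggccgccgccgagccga
A GC box was found in 3 of the 3 windows, against 32.4% of 27457 windows of this length. GC content was 73.6% for Tmem158, 63.2% for Ccdc71l and 80.0% for Cebpb, against a median of 52.0% over all windows. The C/EBP motif TTGCNNAA was in 0 of the 3 and in 9.2% of all windows, and the AP-1 motif TGANTCA was in 0 of the 3 and in 6.36% of all windows, both searched on either strand. A match describes the letters in the window and is not a binding site.

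Tmem158 encodes a membrane protein first described as induced by Ras signalling (ENSRNOG00000004757, chromosome 8). It was at 13, 17.2 and 10.7 CPM in SCI day 14 replicates 1, 2 and 3, against 1.30, 1.34 and 1.34 CPM in the sham replicates. The groups were far apart, with means of 13.6 ± 3.30 CPM in SCI day 14 tissue and 1.33 ± 0.0259 CPM in sham tissue (SD, n = 3 each). Tmem158 rose by 3.36 on the log2 scale (SE 0.224, edgeR quasi-likelihood test, adjusted p = 0.000374). Its adjusted p ranged from 2.15e-44 to 0.0721 over 14 alternatives, and the call was lost only in the fit of the compared groups alone.

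Cebpb encodes C/EBPβ, a transcription factor induced in inflammation (ENSRNOG00000057347, chromosome 3). It was at 10, 26.5 and 17.6 CPM in SCI day 14 tissue, against 0.356, 0.553 and 0.687 CPM in sham tissue. The lowest SCI day 14 library was far above the highest sham library. Cebpb rose by 5.08 on the log2 scale (SE 0.614, edgeR adjusted p = 0.0408), with adjusted p from 4.06e-16 to 0.465 over the 14 alternatives and the call kept in 4.

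Ccdc71l (ENSRNOG00000039207, chromosome 6) was at 2.42, 4.46 and 4.20 CPM in SCI day 14 tissue, against 0.470, 0.507 and 0.484 CPM in sham tissue. Its groups did not overlap either. It rose by 2.92 on the log2 scale (SE 0.327, edgeR adjusted p = 0.0299), with adjusted p from 3.16e-14 to 0.376 over the 14 alternatives and the call kept in 4. Ccdc71l was under the minimum of 5 CPM set for naming genes, and is named because only 3 genes were called. Leaving out SCI day 14 replicate 2 or any 1 sham library reduced the calls to 1, which was Tmem158 each time.

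The next genes by p did not pass the test in edgeR. H1f10, a linker histone, was at 10.7, 10.4 and 9.57 CPM in SCI day 14 tissue, against 1.46, 2.67 and 1.42 CPM in sham tissue (log2 fold change 2.46, SE 0.356, adjusted p = 0.128). Taf10, part of the TFIID complex that starts transcription, was at 16.9, 18.0 and 14.7 CPM in SCI day 14 tissue, against 7.35, 7.35 and 8.31 CPM in sham tissue (log2 fold change 1.11, adjusted p = 0.128). Jund, an AP-1 transcription factor, was at 108, 142 and 112 CPM in SCI day 14 tissue, against 67.2, 63.9 and 66.9 CPM in sham tissue (log2 fold change 0.87, adjusted p = 0.128). In each of these genes the 3 SCI day 14 libraries were close to one another and above all sham libraries. The SCI day 14 libraries also lay above all sham libraries at Hnrnpa0, an RNA-binding protein, the DNA repair factor Xpa and the autophagy protein Map1lc3a, with log2 fold changes of 1.01, 1.76 and 0.88 and adjusted p of 0.235, 0.295 and 0.325 in edgeR. Of the 8 genes with the smallest p, 7 had a model that covers at least 95% of its genomic span, as a gene of a single exon does, against 8.63% of 18398 genes with a recovered length. Of the 20 with the smallest p it was 10. DESeq2 called all the genes named in this paragraph higher, with adjusted p from 4.4e-08 for Taf10 to 0.000253 for Map1lc3a.

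**Figure D1:**
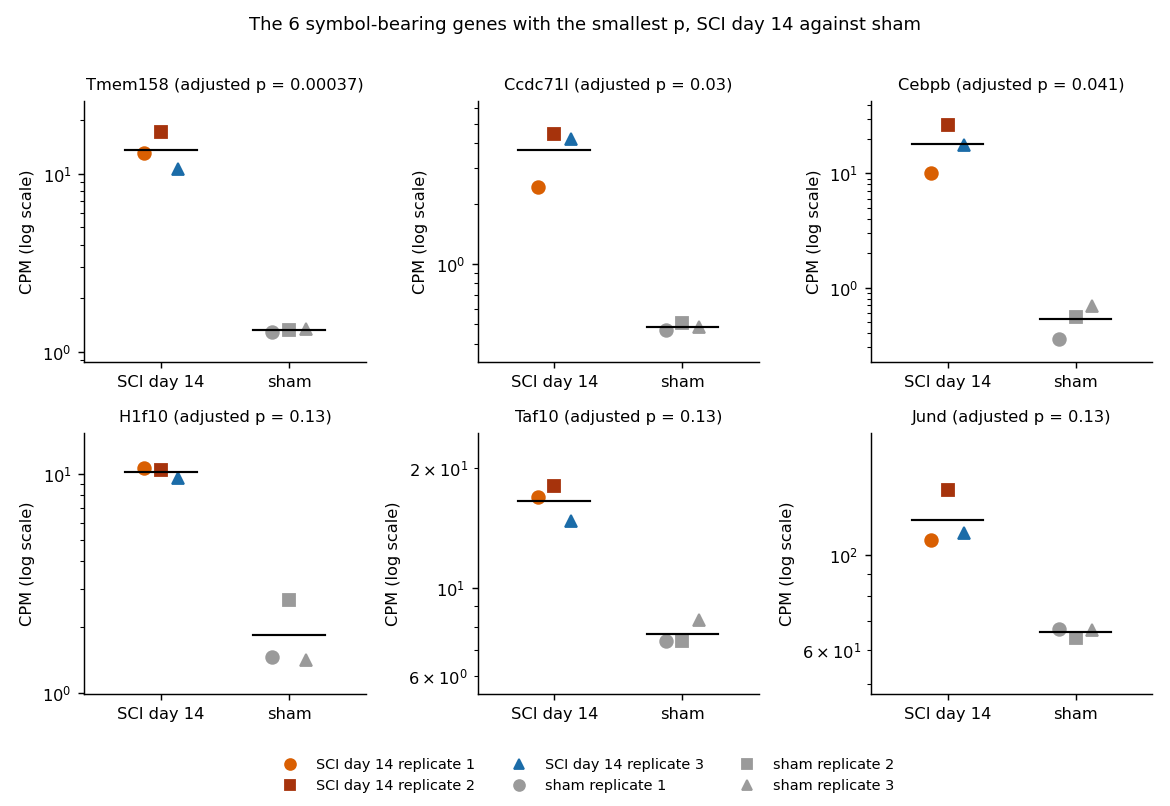
CPM on a log scale in each SCI day 14 library (left, coloured) and each sham library (right, grey) for the 6 genes with a symbol and the smallest p; horizontal lines are group means. Tmem158 sits at 10.7 to 17.2 CPM in SCI day 14 libraries, against 1.30 to 1.34 CPM in sham libraries, and no gene shown overlaps between the groups.

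No gene with lower values passed the test in edgeR. Zbtb3, a zinc finger protein, had the smallest p among named genes with lower values, at 7.11, 13.9 and 9.70 CPM in SCI day 14 tissue, against 25.2, 19.3 and 19.8 CPM in sham tissue (log2 fold change -1.07, SE 0.256, edgeR adjusted p = 0.502). Syce1l, related to a protein of the meiotic synaptonemal complex, was at 1.46, 0.929 and 1.54 CPM in SCI day 14 tissue, against 12, 7.68 and 10.2 CPM in sham tissue (log2 fold change -2.93, adjusted p = 0.553). Slc48a1, a heme transporter, was at 62.3, 72.8 and 65.3 CPM in SCI day 14 tissue, against 202, 138 and 84.6 CPM in sham tissue (log2 fold change -1.08, adjusted p = 0.553). None of these sets of libraries overlapped. DESeq2 called Zbtb3, Syce1l and Slc48a1 lower (DESeq2 adjusted p = 0.0153, 0.0151 and 0.0479). Another 5 genes met the naming rule with log2 fold changes from -1.2 to -0.51: Coq5, Arpc5l, Rab5al1, Psmg3 and Desi1. Coq5, a methyltransferase of coenzyme Q synthesis, was at 16.1, 15.4 and 18.9 CPM in SCI day 14 tissue, against 23.8, 24.7 and 23.2 CPM in sham tissue (adjusted p = 0.51 in edgeR and 0.000365 in DESeq2). DESeq2's 22 lower calls also held Coa7 and Pet100, which take part in the assembly of cytochrome c oxidase, the mitochondrial ribosomal protein Mrps28, the mitochondrial formyltransferase Mtfmt and the import protein Timm44, picked here after their values were seen. Their edgeR log2 fold changes were -0.46, -0.42, -0.48, -0.32 and -0.34. Of the 21 nuclear genes of the oxidative phosphorylation list, DESeq2 called none and edgeR none, with 1 at an unadjusted p under 0.05 in edgeR and a median of -0.27.

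Transcripts of sensory ganglion neurons set SCI day 14 replicates 1 and 2 apart from the other 4 libraries. Scn10a, the sodium channel NaV1.8 of nociceptors, was at 79.6, 131 and 0.184 CPM in SCI day 14 replicates 1, 2 and 3, against 0.162, 0.246 and 0.484 CPM in the sham replicates. P2rx3, the ATP receptor subunit of the same neurons, was at 57.2, 102 and 2.14 CPM in SCI day 14 tissue, against 2.17, 3.00 and 2.64 CPM in sham tissue. Avil, the actin regulator advillin of sensory neurons, was at 88.5, 151 and 6.92 CPM in SCI day 14 tissue, against 4.75, 2.35 and 2.89 CPM in sham tissue. Replicate 3 carried sham levels of Scn10a and P2rx3. Over a list of 18 ganglion genes, all 18 were above every sham library in replicate 1 and all 18 in replicate 2, against 24.5% and 34.7% of all genes, but 4 were above in replicate 3 (30.9% of all genes). The list score, which is the mean over members of log2 CPM minus the sham mean, was 4.79, 5.53 and -0.13 in SCI day 14 replicates 1, 2 and 3, against -0.16, -0.16 and 0.32 in the sham replicates. DESeq2 called 10 of the 18 higher (0.98% of all genes) and edgeR none, with 14 higher at an unadjusted p under 0.05 in edgeR (6.43%).

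Across all genes, 20 (0.107%) were at least 8 times the highest sham library in both of these replicates and at most 1.5 times it in replicate 3. They include Scn11a, a second nociceptor sodium channel, Prdm12, a transcription factor of the nociceptor lineage, Asic3, an acid-sensing channel, and Htr3b, a serotonin-gated channel subunit. The reverse pattern, high in replicate 3 alone, was found at 2 genes (0.0107%), Tnn and Fam181b. Calca, the CGRP precursor made by sensory and motor neurons, was at 99.4, 205 and 25.4 CPM in SCI day 14 tissue, against 22.3, 32.9 and 52.1 CPM in sham tissue (log2 fold change 1.62, SE 1.10, edgeR adjusted p = 0.845). Without replicates 1 and 2 the log2 fold change of Scn10a was -0.69 and that of Calca -0.49.

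**Figure D2:**
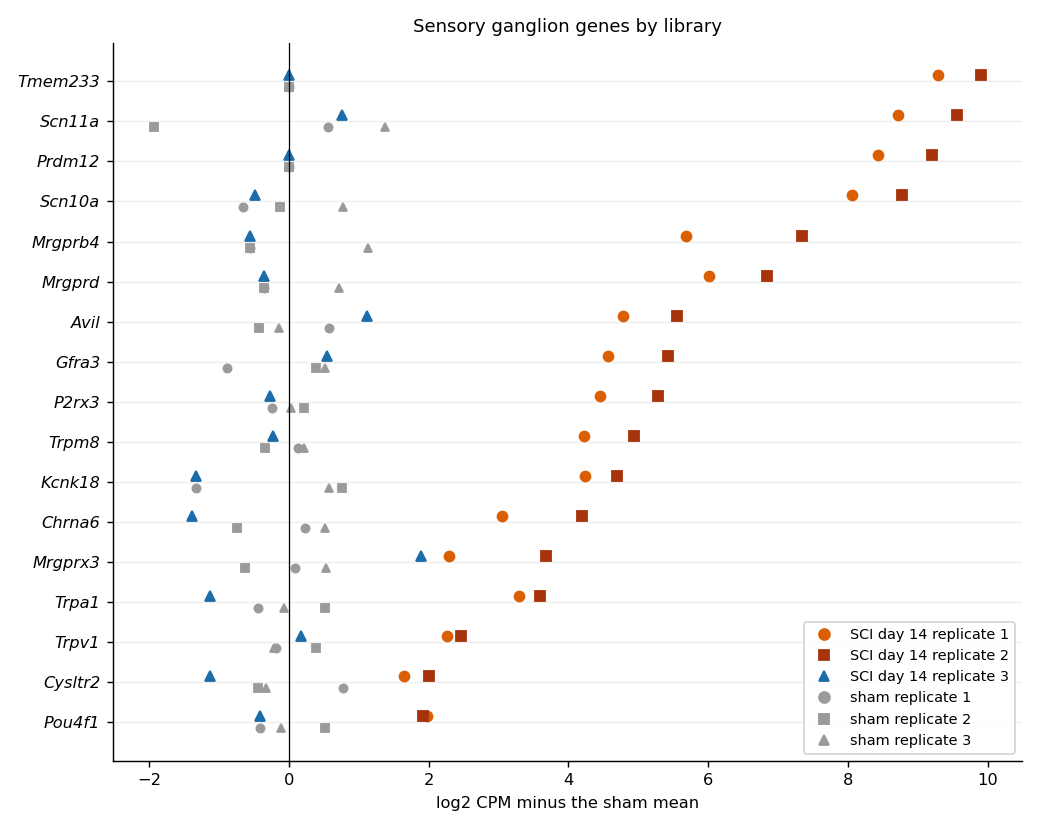
Log2 CPM minus the sham mean for 17 of the 18 sensory ganglion genes (rows) in each SCI day 14 library (upper marks, coloured) and each sham library (lower marks, grey). Replicates 1 and 2 sit to the right at every gene shown, while replicate 3 lies near the sham libraries at most.

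The Schwann cell list scored higher in SCI day 14 replicates 1 and 2 than in replicate 3, and highest of the 6 libraries in sham replicate 2. Pmp22, a peripheral myelin protein, was at 5908, 5916 and 2932 CPM in SCI day 14 tissue, against 1328, 8564 and 1405 CPM in sham tissue, so sham replicate 2 was the highest of the 6. The groups overlapped at Pmp22, and the 13 Schwann cell genes held none with an unadjusted p under 0.05, at a median of 0.39. Without sham replicate 2, 3 of 13 had an unadjusted p under 0.05 with higher values (7.99% of all genes), at a median of 1.79. Their list scores were 1.03, 1.10 and 0.43 in SCI day 14 tissue, against -0.76, 1.42 and -0.66 in sham tissue. Values of replicate 3 and of the fit without replicates 1 and 2 are given beside most groups below.

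Of 14 complement genes tested, 14 were above every sham library in SCI day 14 replicate 2 (34.7% of all genes), 13 in replicate 3 (30.9%) and 10 in replicate 1 (24.5%). The list scores were 0.64, 2.61 and 1.85 in SCI day 14 replicates 1, 2 and 3, against -0.22, 0.22 and 0 in the sham replicates. All 3 SCI day 14 libraries lay above all sham libraries at 9 of the 14 (9.37% of all genes). C1qa, a chain of the initiator of the classical pathway made by microglia, was at 22.2, 208 and 228 CPM in SCI day 14 replicates 1, 2 and 3, against 24.7, 22.7 and 26.2 CPM in the sham replicates. C1qb was at 22.8, 177 and 205 CPM in SCI day 14 tissue, against 19.2, 18.1 and 19.6 CPM in sham tissue. C3, the component on which the pathways converge, was at 78.4, 846 and 208 CPM in SCI day 14 tissue, against 65.8, 22.9 and 80.5 CPM in sham tissue. Replicate 1 was just below the sham range at C1qa, within it at C3 and just above it at C1qb. C4b, which acts between C1 and C3, had no overlap, at 26.8, 44.5 and 24.4 CPM in SCI day 14 tissue, against 2.88, 9.01 and 5.30 CPM in sham tissue (log2 fold change 2.48, SE 0.581, edgeR adjusted p = 0.502). None of the 14 genes passed in edgeR, while 12 had an unadjusted p under 0.05 with higher values (6.43% of all genes). DESeq2 called 6 higher (C1qa, C1qb, C1qc, C3, C4b and Cfb), against 0.98% of all genes. The median log2 fold change of the 14 was 1.86, against 0.01 over all genes. It was 1.57 in the fit without replicates 1 and 2, where 9 of 14 had an unadjusted p under 0.05 with higher values (2.99% of all genes). Leaving out replicate 2 alone left 5 of 14 at an unadjusted p under 0.05 (2.18% of all genes), with a median of 1.14.

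Genes of activated microglia and phagocytes had list scores of 0.54, 2.52 and 1.84 in SCI day 14 tissue, against -0.32, 0.48 and -0.16 in sham tissue. Gpnmb, a glycoprotein of phagocytes that hold lipid, was at 17.9, 402 and 264 CPM in SCI day 14 tissue, against 13, 11 and 11.6 CPM in sham tissue (log2 fold change 4.27, SE 1.2, edgeR adjusted p = 0.553). Cd68, a lysosomal protein of phagocytes, was at 4.08, 83.7 and 40.6 CPM in SCI day 14 tissue, against 2.17, 4.56 and 1.61 CPM in sham tissue (log2 fold change 3.94, adjusted p = 0.553). Lgals3, the lectin galectin-3, was at 17.3, 103 and 73.0 CPM in SCI day 14 tissue, against 7.66, 12.8 and 7.75 CPM in sham tissue (log2 fold change 2.78, adjusted p = 0.502). Replicate 1 was above sham at Gpnmb and Lgals3 by much less than replicates 2 and 3, and within the sham range at Cd68. Of the 29 genes tested, 13 were above every sham library in replicate 1 (24.5% of all genes), 28 in replicate 2 (34.7%) and 26 in replicate 3 (30.9%). The unadjusted p was under 0.05 with higher values at 21 of 29 (6.43% of all genes). DESeq2 called 6 higher (0.98% of all genes), and the median log2 fold change was 1.58. Without replicates 1 and 2 the median was 1.65. Without replicate 2 alone it was 1.19, and 9 had an unadjusted p under 0.05 with higher values (2.18% of all genes).

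The 13 homeostatic microglia genes hold markers of the cell type at rest beside general microglial genes such as Aif1. In edgeR 5 had an unadjusted p under 0.05 with higher values (6.43% of all genes), at a median of 1.05. Without replicate 2 alone it was 1 (2.18%), at a median of 0.68. Above every sham library were 2 of 13 in replicate 1 (24.5% of all genes), 12 of 13 in replicate 2 (34.7%) and 12 of 13 in replicate 3 (30.9%). Their list scores were 0.04, 1.65 and 1.37 in SCI day 14 tissue, against 0.23, -0.35 and 0.13 in sham tissue. Aif1, the microglial calcium-binding protein IBA1, was at 5.35, 23.4 and 18.8 CPM in SCI day 14 tissue, against 4.57, 5.67 and 5.70 CPM in sham tissue (log2 fold change 1.57, SE 0.527, edgeR adjusted p = 0.594). MHC class II genes differed between replicates 2 and 3. Cd74, the invariant chain of antigen presentation, was at 32.8, 268 and 32.9 CPM in SCI day 14 tissue, against 20.4, 38.2 and 36.0 CPM in sham tissue, high in replicate 2 alone. RT1-DMb, which loads peptide onto class II molecules, was instead at 12.8, 54.5 and 48.7 CPM in SCI day 14 tissue, against 9.87, 10.7 and 12.1 CPM in sham tissue. The interferon response list was highest in replicate 2 as well, at scores of 0.29, 1.42 and 0.19 in SCI day 14 tissue, against -0.26, 0.39 and -0.13 in sham tissue. Markers of monocytes and border macrophages, the other cells that share these genes, had list scores of 0.55, 1.98 and 0.95 in SCI day 14 tissue, against -0.33, 0.89 and -0.56 in sham tissue. Their part in the result was not tested. Pf4, a chemokine of border macrophages and platelets, was at 4.58, 12.9 and 2.49 CPM in SCI day 14 tissue, against 0.794, 0.938 and 0.312 CPM in sham tissue (edgeR adjusted p = 0.502, DESeq2 adjusted p = 0.00143).

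Several reactive astrocyte genes, but not Gfap, lay above sham in all 3 SCI day 14 libraries. Gfap, the intermediate filament of astrocytes, was at 1243, 5275 and 2590 CPM in SCI day 14 tissue, against 2328, 1004 and 2346 CPM in sham tissue, and its groups overlapped (log2 fold change 0.68, SE 0.566, edgeR adjusted p = 0.885). Cp, the ferroxidase ceruloplasmin, was at 71.4, 258 and 190 CPM in SCI day 14 tissue, against 45.0, 59.6 and 53.9 CPM in sham tissue (log2 fold change 1.71, adjusted p = 0.553). Osmr, the oncostatin M receptor, was at 11.4, 44.5 and 23.1 CPM in SCI day 14 tissue, against 4.84, 6.44 and 5.98 CPM in sham tissue (log2 fold change 2.19, adjusted p = 0.592). Socs3, a feedback inhibitor of cytokine signalling through STAT3, was at 7.99, 40.8 and 26.4 CPM in SCI day 14 tissue, against 3.21, 5.44 and 3.23 CPM in sham tissue (log2 fold change 2.66, adjusted p = 0.594). The last 3 genes did not overlap between the groups. Of 22 reactive astrocyte genes tested, 10 had no overlap, all with higher values (9.37% of all genes). The unadjusted p was under 0.05 with higher values at 11 (6.43%), at a median log2 fold change of 1.48. Without replicates 1 and 2 the median was 1.08. Without replicate 2 alone it was 0.90, and 5 had an unadjusted p under 0.05 with higher values (2.18% of all genes). The 16 homeostatic astrocyte genes held none with an unadjusted p under 0.05 and had a median of -0.32.

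**Figure D3:**
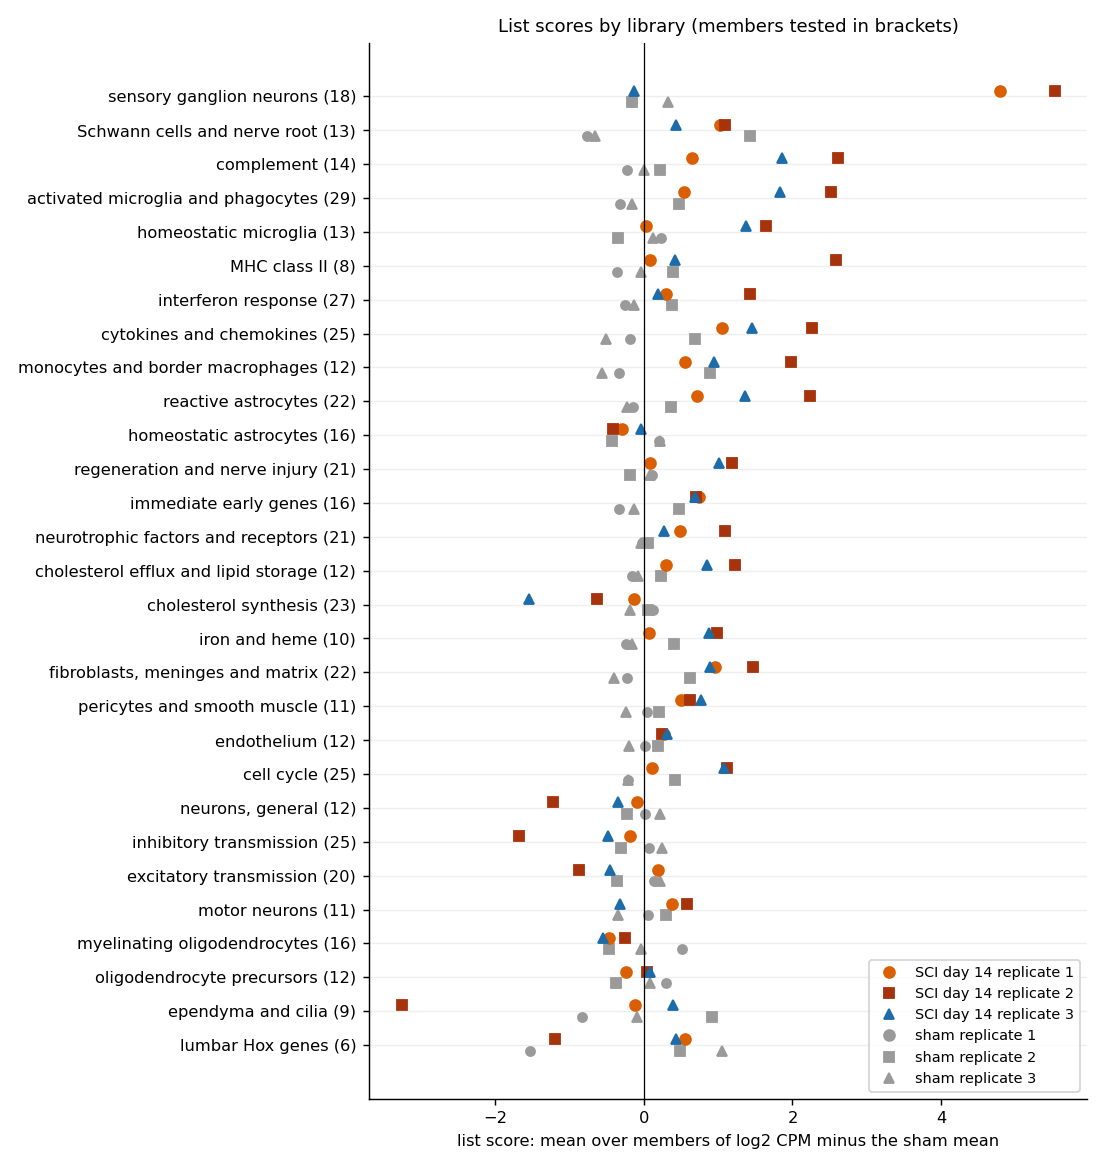
List score, the mean over members of log2 CPM minus the sham mean, for 29 gene lists (rows, members tested in brackets) in each SCI day 14 library (upper marks, coloured) and each sham library (lower marks, grey). Complement scores are 0.64, 2.61 and 1.85 in SCI day 14 replicates 1, 2 and 3, and cholesterol synthesis is lowest in replicate 3 at -1.54.

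Cholesterol synthesis genes had their lowest values in SCI day 14 replicate 3. The 23 cholesterol synthesis genes tested cover the mevalonate and sterol steps and their regulators, and all 23 were below every sham library in SCI day 14 replicate 3 (26.3% of all genes), 20 in replicate 2 (34.2%) and 10 in replicate 1 (20.8%). Their list scores were -0.13, -0.63 and -1.54 in SCI day 14 replicates 1, 2 and 3, against 0.12, 0.06 and -0.18 in the sham replicates. None passed the test in edgeR or DESeq2. The unadjusted p was under 0.05 with lower values at 13 (0.967% of all genes). No overlap was found at 10, all with lower values (6.28%), at a median log2 fold change of -0.72 over the list. In the fit without replicates 1 and 2 the unadjusted p was under 0.05 with lower values at 23 of 23 (1.05% of all genes), at a median of -1.58 and with no adjusted p under 0.05. The count changed with most libraries. It was 20, 4 and 2 without SCI day 14 replicates 1, 2 and 3 in turn (1.8%, 0.518% and 0.963% of all genes). It was 3, 5 and 9 without sham replicates 1, 2 and 3 in turn (0.538%, 1.23% and 0.501%). The medians of these fits ran from -1.06 without SCI day 14 replicate 1 to -0.42 without SCI day 14 replicate 3.

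Hmgcs1, the synthase at the head of the pathway, was at 1095, 599 and 250.5 CPM in SCI day 14 tissue, against 1216, 1297 and 901 CPM in sham tissue (log2 fold change -0.81, SE 0.440, edgeR adjusted p = 0.758). Msmo1, a sterol methyl oxidase, was at 246, 168 and 85.3 CPM in SCI day 14 tissue, against 321, 314 and 228 CPM in sham tissue (log2 fold change -0.79, adjusted p = 0.629). Cyp51, the sterol demethylase, was at 402, 261 and 109.7 CPM in SCI day 14 tissue, against 706, 432 and 448 CPM in sham tissue (log2 fold change -1.04, adjusted p = 0.629). Replicate 3 was the lowest of the 6 libraries at all 3 genes, and the SCI day 14 range met the sham range at Hmgcs1 and Msmo1. Srebf2, the transcription factor that drives the pathway, was at 227, 180 and 134 CPM in SCI day 14 tissue, against 229, 248 and 241 CPM in sham tissue (log2 fold change -0.41, adjusted p = 0.67).

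The windows before 3 of these genes are shown with the CCAAT box, CCAAT on either strand, in capitals, since the members were low together in replicate 3. They are RefSeq's on GRCr8, at chr2:53382054-53382303 on the plus strand, chr16:29746863-29747112 on the plus strand and chr13:84722755-84723004 on the minus strand, written on the gene's strand.
Hmgcs1: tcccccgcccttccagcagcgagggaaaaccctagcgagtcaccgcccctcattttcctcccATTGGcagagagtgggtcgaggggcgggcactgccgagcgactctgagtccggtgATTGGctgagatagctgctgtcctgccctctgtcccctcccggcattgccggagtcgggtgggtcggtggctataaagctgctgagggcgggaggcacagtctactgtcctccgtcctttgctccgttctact
Msmo1: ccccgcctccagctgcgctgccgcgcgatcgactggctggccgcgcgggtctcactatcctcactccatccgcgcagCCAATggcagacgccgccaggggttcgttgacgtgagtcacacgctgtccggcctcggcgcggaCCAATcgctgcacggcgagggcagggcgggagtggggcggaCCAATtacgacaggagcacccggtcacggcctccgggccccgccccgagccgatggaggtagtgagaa
Hsd17b7: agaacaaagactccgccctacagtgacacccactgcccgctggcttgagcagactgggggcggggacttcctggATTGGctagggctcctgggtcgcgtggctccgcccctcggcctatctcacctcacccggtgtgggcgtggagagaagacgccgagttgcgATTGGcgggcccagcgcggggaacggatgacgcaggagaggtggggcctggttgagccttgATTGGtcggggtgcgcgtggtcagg
A CCAAT box was in 13 of the 16 cholesterol synthesis windows in the table, against 34.3% of all 27457 windows, and a GC box in 14 of 16, against 32.4%. The sterol regulatory element letters TCACNCCAC, searched on either strand, were in 0 of 16 and in 0.976% of all windows. Hsd17b7, a sterol ketoreductase, was at 12.8, 11.1 and 4.49 CPM in SCI day 14 tissue, against 19.1, 14.7 and 14.0 CPM in sham tissue (log2 fold change -0.75, SE 0.322, edgeR adjusted p = 0.652).

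Among genes of cholesterol efflux and lipid storage, none passed in edgeR and DESeq2 called 2 of 12 higher (0.98% of all genes). Abca1, the transporter that exports cholesterol to lipoproteins, was at 44.3, 160 and 137 CPM in SCI day 14 tissue, against 31.9, 31.7 and 31.0 CPM in sham tissue (log2 fold change 1.85, SE 0.486, edgeR adjusted p = 0.547, DESeq2 adjusted p = 0.028). Ch25h, an enzyme that makes an oxysterol, was at 8.15, 22.1 and 11.3 CPM in SCI day 14 tissue, against 2.35, 3.83 and 2.80 CPM in sham tissue (log2 fold change 2.21, adjusted p = 0.502). Apoe, the lipid carrier of glia, was at 1472, 4524 and 4801 CPM in SCI day 14 tissue, against 1642, 1834 and 2115 CPM in sham tissue, with replicate 1 below sham (log2 fold change 0.95, adjusted p = 0.665). Of 12 genes tested, 7 had an unadjusted p under 0.05 with higher values (6.43% of all genes). No overlap was found at 5, all with higher values (9.37%), and the median log2 fold change of the 12 was 0.78. In the fit without replicates 1 and 2 the median was 0.75. Without replicate 2 alone it was 0.55, and 3 had an unadjusted p under 0.05 with higher values (2.18% of all genes). That count was 4 without SCI day 14 replicate 3 (5.66%). It was 3, 4 and 3 without sham replicates 1, 2 and 3 in turn (3.49%, 7.99% and 3.36%).

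**Figure D4:**
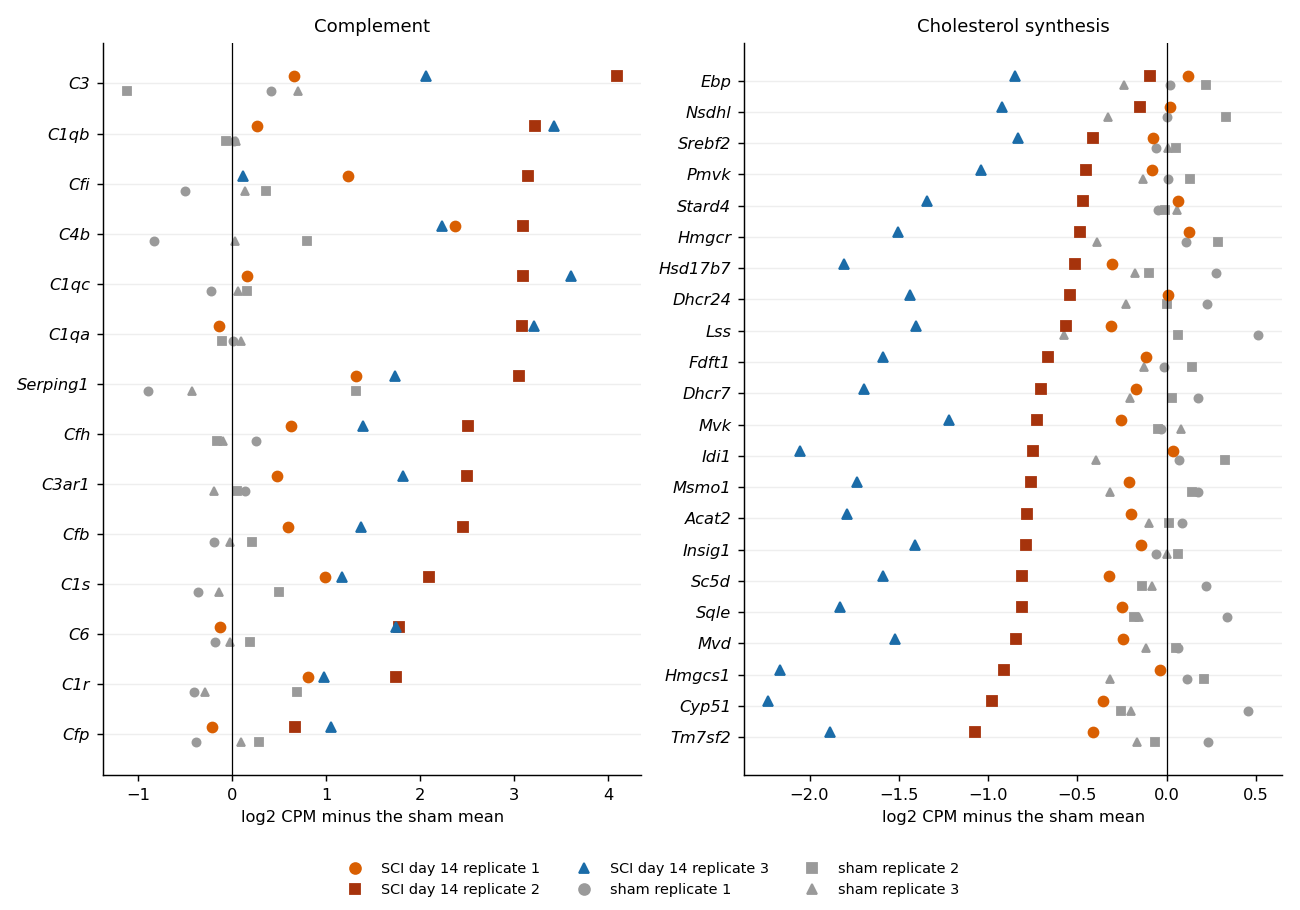
Log2 CPM minus the sham mean for 14 complement genes (left) and 22 of the 23 cholesterol synthesis genes (right) in each SCI day 14 library (upper marks, coloured) and each sham library (lower marks, grey). Replicate 2 stands to the right of every sham library at 14 complement genes and replicate 3 at 13, and replicate 3 stands to the left of every sham library at all 22 cholesterol synthesis genes shown.

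Immediate early and nerve injury genes were higher in all 3 SCI day 14 libraries at part of their lists. Fos, an AP-1 transcription factor of recent activity, was at 24.1, 49.2 and 28.3 CPM in SCI day 14 tissue, against 18.1, 18.4 and 16.9 CPM in sham tissue (log2 fold change 0.93, SE 0.411, edgeR adjusted p = 0.67). Atf3, a transcription factor of injured neurons, was at 9.58, 31.5 and 17.7 CPM in SCI day 14 tissue, against 3.00, 7.29 and 1.73 CPM in sham tissue (log2 fold change 2.29, adjusted p = 0.609). Neither gene overlapped between the groups. The 16 immediate early genes had even list scores of 0.75, 0.70 and 0.69 in SCI day 14 tissue, against -0.34, 0.47 and -0.13 in sham tissue. With higher values, 8 of 16 had an unadjusted p under 0.05 (6.43% of all genes) and 8 of 16 had no overlap (9.37%). The median was 0.82. Of 21 regeneration and nerve injury genes, 8 had an unadjusted p under 0.05, all with higher values (6.43% of all genes), at a median of 0.53. Without replicates 1 and 2, the median was 0.51 for the immediate early list and 0.52 for the regeneration list. Without replicate 2 alone, 2 immediate early genes and 1 regeneration gene had higher values at that threshold (2.18% of all genes). Without sham replicates 1, 2 and 3 in turn the immediate early list had 2, 8 and 3, and the regeneration list 2, 4 and 3. The shares of all genes in these fits were 3.49%, 7.99% and 3.36%. Ngfr, the p75 neurotrophin receptor of Schwann cells and sensory neurons, was at 83.2, 212 and 57.3 CPM in SCI day 14 tissue, against 6.80, 14.8 and 8.92 CPM in sham tissue (log2 fold change 3.53, SE 0.656, edgeR adjusted p = 0.349, DESeq2 adjusted p = 1.73e-05). All 3 SCI day 14 libraries were above every sham library at Ngfr, and the part of Schwann cell and ganglion RNA in its level was not tested. Bdnf was at 4.67, 2.91 and 1.66 CPM in SCI day 14 tissue, against 4.08, 2.32 and 3.61 CPM in sham tissue, with overlap.

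Several matrix genes were higher in all 3 SCI day 14 libraries. Thbs1, the matrix glycoprotein thrombospondin-1, was at 146, 136 and 133 CPM in SCI day 14 tissue, against 12.4, 22.6 and 9.81 CPM in sham tissue (log2 fold change 3.21, SE 0.813, edgeR adjusted p = 0.51, DESeq2 adjusted p = 0.00404). Lox, which cross-links collagen, was at 10.3, 37.4 and 19.9 CPM in SCI day 14 tissue, against 3.92, 2.31 and 2.48 CPM in sham tissue (log2 fold change 2.96, adjusted p = 0.502 in edgeR). Fn1, fibronectin, was at 262, 919 and 441 CPM in SCI day 14 tissue, against 187, 169 and 110.5 CPM in sham tissue (log2 fold change 1.80, adjusted p = 0.553 in edgeR). At Thbs1 the SCI day 14 libraries hardly differed from one another, while at Lox and Fn1 replicate 2 was highest. Of 22 fibroblast, meninges and matrix genes, 8 had no overlap, all with higher values (9.37% of all genes). The unadjusted p was under 0.05 with higher values at 5 (6.43%), at a median of 0.82. Leaving out sham replicate 2 took that count to 16 (7.99% of all genes). Des, the intermediate filament desmin of vessel walls, was at 11.1, 14.6 and 13.7 CPM in SCI day 14 tissue, against 4.63, 7.42 and 4.41 CPM in sham tissue (log2 fold change 1.26, SE 0.305, edgeR adjusted p = 0.502). Of 11 pericyte and smooth muscle genes, 6 had no overlap, all with higher values (9.37% of all genes).

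General neuronal and inhibitory genes had their lowest list scores in SCI day 14 replicate 2. Below every sham library were 6, 22 and 17 of 25 inhibitory genes in replicates 1, 2 and 3. Of 12 general neuronal genes it was 4, 10 and 10. The shares over all genes were 20.8%, 34.2% and 26.3%. Motor neuron genes scored 0.38, 0.58 and -0.32 in SCI day 14 replicates 1, 2 and 3, against 0.06, 0.29 and -0.35 in the sham replicates. In replicate 3, 0 of 11 motor neuron genes were above every sham library (30.9% of all genes) and 6 were below (26.3%). The list holds Isl1 and Prph, which sensory neurons also express, and the part of ganglion RNA in the scores of replicates 1 and 2 was not tested. Slc12a5, the chloride extruder KCC2 that sets inhibition in spinal neurons, was at 456, 94.7 and 391 CPM in SCI day 14 tissue, against 516, 457 and 609 CPM in sham tissue (log2 fold change -0.75, SE 0.880, edgeR adjusted p = 0.899). Gad1, which makes GABA, was at 88.5, 19.1 and 95.8 CPM in SCI day 14 tissue, against 104, 107 and 131 CPM in sham tissue (log2 fold change -0.75, adjusted p = 0.887). Gad1 was lower in all 3 SCI day 14 libraries, by far the most in replicate 2. Slc12a5 was also by far the lowest in replicate 2, while replicate 1 was level with sham replicate 2 (456.5 against 456.7 CPM). The general neuronal marker Rbfox3 moved with them, at 100.3, 41.7 and 83.5 CPM in SCI day 14 tissue, against 104, 103 and 126 CPM in sham tissue. Of 25 genes of inhibitory transmission, none had an unadjusted p under 0.05 and 4 had no overlap, all with lower values (6.28% of all genes). The median log2 fold change was -0.69, or -0.52 without replicates 1 and 2. Over the 12 general neuronal genes these medians were -0.54 and -0.36, and the part of neuronal RNA content in the lower values was not tested.

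Genes tied to motor output and monoamine input did not pass the test. Chat, which makes acetylcholine in motor neurons, was at 32.7, 42.7 and 32.0 CPM in SCI day 14 tissue, against 40.0, 38.2 and 43.6 CPM in sham tissue (log2 fold change -0.18, SE 0.887, edgeR adjusted p = 0.97). Htr2c, the serotonin receptor of motor neurons and interneurons, was at 120.3, 26.9 and 126 CPM in SCI day 14 tissue, against 165, 122 and 172 CPM in sham tissue (log2 fold change -0.75, adjusted p = 0.899). Htr2a was at 7.91, 9.30 and 5.70 CPM in SCI day 14 tissue, against 12.1, 6.90 and 8.72 CPM in sham tissue (log2 fold change -0.27, adjusted p = 0.921). All 3 genes overlapped between the groups. Mbp, the myelin basic protein of oligodendrocytes and Schwann cells, was at 16200, 23060 and 17950 CPM in SCI day 14 tissue, against 38480, 20560 and 26350 CPM in sham tissue, with overlap (log2 fold change -0.58, SE 0.326, adjusted p = 0.78). The 16 genes of myelinating oligodendrocytes had a median of -0.50 and none with an unadjusted p under 0.05. Without sham replicate 2, 5 of 16 had an unadjusted p under 0.05 with lower values (1.23% of all genes), at a median of -0.67. Ependymal genes were lowest in replicate 2, with list scores of -0.12, -3.26 and 0.39 in SCI day 14 tissue, against -0.83, 0.92 and -0.09 in sham tissue.

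SCI day 14 replicate 3, the library at sham levels of ganglion genes, was also set against the 3 sham libraries on its own, with the spread taken from the other groups. That fit called 2 of 19686 genes, 1 higher (0.00508%) and 1 lower (0.00508%). Tmem158 was the higher one (log2 fold change 3.00, adjusted p = 0.0135 in edgeR). Fam53b was the lower one, at 29.0, 29.2 and 0 CPM in SCI day 14 replicates 1, 2 and 3, against 37.3, 32.6 and 30.3 CPM in the sham replicates. A count of 0 in replicate 3 allows up to 0.0461 CPM, and every other library of the series held 16 to 38.1 CPM, so the Fam53b call rests on 1 library with no reads. The other genes named in that fit were Pdk4, a kinase that restrains glucose oxidation, at 14.4, 56.2 and 122 CPM in SCI day 14 tissue, against 18.7, 15.9 and 27.5 CPM in sham tissue, and Mt2A, a metallothionein, at 5.83, 53.6 and 64.0 CPM in SCI day 14 tissue, against 7.73, 4.53 and 5.08 CPM in sham tissue. Replicate 1 was within or near the sham range at both.

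**Figure D5:**
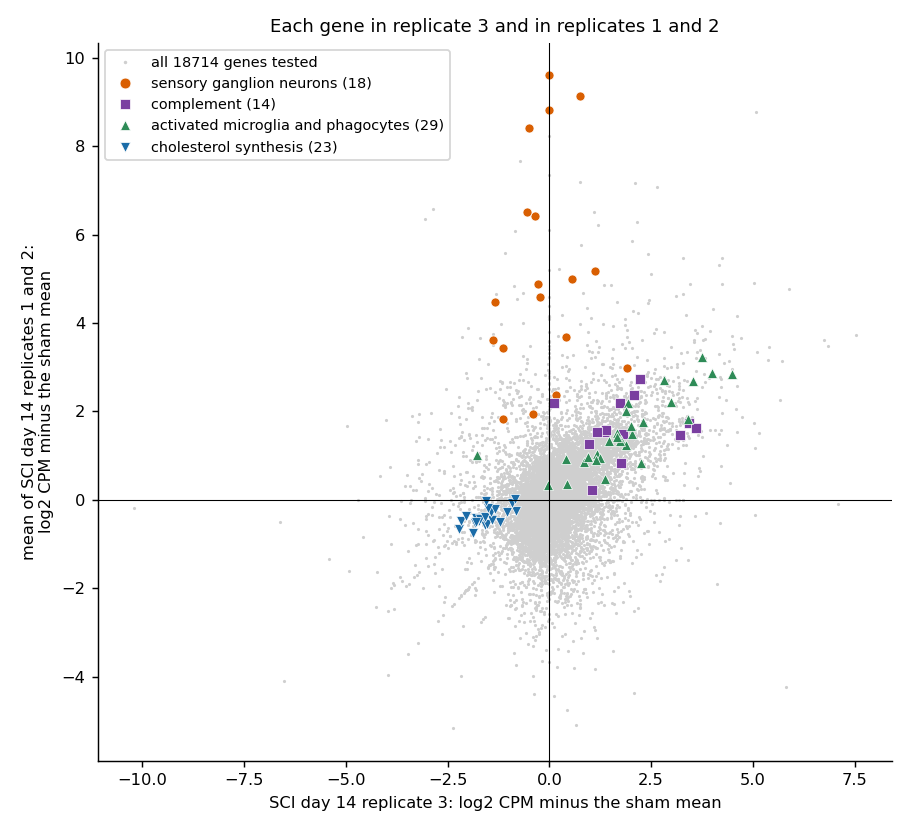
Each of 18714 genes by its log2 CPM minus the sham mean in SCI day 14 replicate 3 (horizontal axis) and by the mean of that difference in replicates 1 and 2 (vertical axis), with 4 gene lists in colour. Ganglion genes spread up the vertical axis near 0 in replicate 3, complement and activated microglia genes lie up and to the right, and cholesterol synthesis genes lie to the left.

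Against the earlier times after SCI, no gene passed the test at day 14. SCI day 14 against SCI day 7 gave 0 calls in edgeR (0%) and 49 in DESeq2. The unadjusted p was under 0.05 at 686 genes (3.67%), 420 with higher values (2.24%) and 266 with lower values (1.42%). SCI day 14 against SCI day 3 gave 0 calls in edgeR (0%) and 1096 in DESeq2. The unadjusted p was under 0.05 at 3343 genes (17.9%), 1279 with higher values (6.83%) and 2064 with lower values (11%). SCI day 3 replicate 2 stood apart from the other day 3 libraries in several measures: its ganglion list score was 3.15, against -0.05 and 0.06 in replicates 1 and 3, and its general neuronal score was -0.34, against -2.94 and -3.36. Without that library edgeR called 4342 genes.

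The 3 genes called against sham had no call against day 7. Tmem158 was at 13, 17.2 and 10.7 CPM in SCI day 14 tissue, against 11.8, 11.3 and 8.72 CPM in SCI day 7 tissue and 10.6, 10.7 and 9.50 CPM in SCI day 3 tissue. Cebpb was at 10, 26.5 and 17.6 CPM in SCI day 14 tissue, against 12.5, 25.9 and 37.1 CPM in SCI day 7 tissue and 58.6, 23.3 and 74.5 CPM in SCI day 3 tissue. The ranges of day 14 and day 7 overlapped at both genes. These comparisons share their SCI day 14 libraries with the one against sham.

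Among genes named against day 7, Ptgds, a prostaglandin synthase of meninges and oligodendrocytes, was at 575, 919 and 506 CPM in SCI day 14 tissue, against 221, 207 and 274 CPM in SCI day 7 tissue (log2 fold change 1.51, edgeR adjusted p = 1). Masp1, a protease of the lectin pathway of complement, was at 25.6, 35.5 and 36.6 CPM in SCI day 14 tissue, against 56.9, 59.9 and 65.7 CPM in SCI day 7 tissue (log2 fold change -0.90, edgeR adjusted p = 1). Neither overlapped. Among genes named against day 3, Aldh1l1, a folate enzyme that marks astrocytes, was at 47.8, 35.0 and 41.7 CPM in SCI day 14 tissue, against 15.8, 16 and 11.5 CPM in SCI day 3 tissue (log2 fold change 1.53, edgeR adjusted p = 0.0807). Fosb, an immediate early transcription factor, was at 2.49, 6.05 and 4.39 CPM in SCI day 14 tissue, against 24.5, 30.1 and 27.6 CPM in SCI day 3 tissue (log2 fold change -2.67, edgeR adjusted p = 0.144). All day 3 libraries lay apart from all day 14 libraries at both. Sham tissue was at 56.9, 43.1 and 56.9 CPM for Aldh1l1 and at 0.923, 2.50 and 1.61 CPM for Fosb. Over the 22 reactive astrocyte genes the median log2 fold change was -0.59 against day 7 and -1.36 against day 3, and over the 14 complement genes it was 0.22 and 0.23. Over the 25 cell cycle genes it was -1.64 against day 7 and -2.01 against day 3. Their list scores were 0.11, 1.12 and 1.08 in SCI day 14 tissue. These scores were 1.45, 3.09 and 1.45 in SCI day 7 tissue and 3.95, 0.88 and 0.71 in SCI day 3 tissue. In edgeR, 0 of the 25 had an unadjusted p under 0.05 against day 7. Against day 3 it was 10, all with lower values (11% of all genes).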

How the data were processed

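RNA-seq was made from lumbar cord with the RNeasy and SMARTer mRNA-Seq kits, per the labels' protocols. The authors deposited 1 table of raw read counts per gene and of FPKM values for all 12 libraries, per the file headers. No aligner, counter, annotation or strand setting is given in the sources used here, so reads of overlapping genes and of near-identical copies, such as Rab5al1 and Rab5a, cannot be told apart. GRCm38 and mm10, which are mouse builds, appear in the submitters' processing notes although the genes carry Ensembl identifiers of rat. Coordinates in the file served only to give the chromosomes named and the genomic spans set against the gene model lengths. The deposited FPKM served only to recover gene model lengths.

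Counts of 23526 genes were filtered by group (filterByExpr), which left 18714, and scaled by TMM. All 12 libraries entered 1 edgeR quasi-likelihood fit (edgeR 4.0.16, R 4.3.3, limma 3.58.1) with 1 mean per group, tests were two-sided, and p-values were adjusted by Benjamini and Hochberg over all genes tested. CPM use the TMM library sizes and list scores a prior count of 2. DESeq2 1.42.0 was an alternative. The fit was tested on simulated counts with known changes. List counts with each library left out, and by DESeq2, were added after seeing the data. Total counts ranged from 63010295 to 79072710 over the 12 libraries. Groups came from the sample labels.

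Of the list symbols, 628 of 668 were tested, over 40 lists. The members and lists were chosen with earlier results of these data known. Named genes had at least 5 CPM, no overlap between groups and a symbol, with 8 in each direction by size or, where under 4 were called, by smallest p. For each list up to 4 members with the smallest p could be named, besides a set of known cord, injury and ganglion genes. Other members are named as examples after their values were seen. Promoter windows are RefSeq's for GRCr8, matched by symbol. A few genes are not reported here by name, though the counts and medians of their lists include them.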

Additional observations from a re-analysis of the deposited data

How the results depend on the processing

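Of SCI day 14 against sham, the 3 calls became 204 with DESeq2, 0 in the fit of the compared groups alone, 1 with the replicate block, 1 with the ganglion score as a covariate, 1 without the day 3 group, which was added after seeing the data, and 2 without SCI day 14 replicates 1 and 2. Leaving out 1 library gave 1 to 3 calls. DESeq2 size factors and no filter on low counts each gave 3. Against day 7 the 0 calls became 49 with DESeq2 and 1 without SCI day 14 replicates 1 and 2. Against day 3 they became 1096 with DESeq2 and 2 without those replicates, and leaving out 1 library gave 0 to 4342. Genes without overlap numbered 2928, 10688 without SCI day 14 replicates 1 and 2, and 3727 to 7064 without 1 library, since fewer libraries overlap less. Of 1840 values of single genes under alternatives, 1750 kept their direction and side of the threshold, 21 lost a call, 61 gained one, 53 of them in DESeq2, and 8 changed sign. The log2 fold change of Bdnf was 0.18 without SCI day 14 replicate 3, 0.06 without sham replicate 1 and -0.54 to 0.18 over all fits without 1 library. Without both ganglion-carrying libraries Scn10a was at -0.69, Calca at -0.49, Trpm8 at -0.27 and RT1-Ba at -0.047, and with the covariate Scn10a was at -0.24 and Calca at -1.04. The causes were not tested. Same-numbered SCI day 14 and sham libraries correlated at 0.00344, 0.107 and 0.132 in their deviations from the group means across genes. Differently numbered pairs of these groups ran from -0.166 to 0.055. Same-numbered values were 0.244, 0.23 and -0.0764 with SCI day 7, and -0.318, -0.343 and -0.0478 with SCI day 3. Whether same-numbered libraries were paired cannot be told from these values. With 3 libraries a group and a spread shared over all 12 libraries, a difference that was small beside that spread could go uncalled.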

Other observations

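Of 25 cell cycle genes, 22 were above every sham library in replicate 2 (34.7% of all genes), 23 in replicate 3 (30.9%) and 6 in replicate 1 (24.5%). None had an unadjusted p under 0.05 in edgeR. Hmox1 and Irf8 were picked after their values were seen and did not pass the test in edgeR. Hmox1, the heme oxygenase that breaks down heme, was at 13.2, 42.3 and 41.5 CPM in SCI day 14 tissue, against 7.26, 12.5 and 8.94 CPM in sham tissue. Irf8, a transcription factor of microglia, was at 12.2, 61.5 and 40 CPM in SCI day 14 tissue, against 10.6, 9.44 and 8.52 CPM in sham tissue.

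Of protein-coding genes with a mean of at least 5 CPM whose model covers at least 95% of its genomic span, 14.9% of 322 had all SCI day 14 libraries above all sham libraries, against 9.93% of 11917 other genes, and 9.94% had them all below, against 6.74%. The median log2 fold change of the class was -0.04. This class was examined after the called genes had been seen, and its part in the called genes was not tested. Ccl3, a chemokine of microglia, was at 0, 1.69 and 0.599 CPM in SCI day 14 tissue, and was at 0 in every sham library.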
